A study of Sus scrofa with 22 samples.

Results

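The genes described here encode the proteins of the cytosolic ribosome, as read by Affymetrix porcine arrays in the mononuclear white cells of mini pig blood. They were chosen by name: every probe set whose single gene symbol begins with RPL or RPS was taken, the S6 kinases (RPS6K) were left out, and each gene was represented by its brightest probe set. This gave 64 genes of the 6765 genes with a single symbol on the array, and no difference between conditions entered the rule. At time 0, 10 arrays (5 females, 5 males) gave the basal levels on control chow with 5% beef tallow. After 9 months there were 4 arrays (2 females, 2 males) on each of 3 diets, namely the control chow, a high-fat chow with 20% beef tallow, and the high-fat chow with resveratrol, a polyphenol of grapes, given daily at 8 mg for each kg of body weight. Pigs 8 and 25 of the control diet were sampled at both times, which makes 20 pigs for 22 arrays, and the labels give no ages. The study asked how the high-fat diet, and resveratrol on top of it, alter gene expression in these cells.

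The cytosolic ribosome is built from a small subunit, which reads the mRNA, and a large subunit, which joins the amino acids, and each holds ribosomal RNA and many small proteins. Ribosomal protein mRNAs are among the most abundant in any cell. They share a terminal oligopyrimidine start that lets the kinase mTOR control their translation together, so that much of their regulation acts after transcription. Resting lymphocytes keep a large store of these mRNAs and draw on it when they are activated. In the text, large and small subunit proteins and the P-stalk proteins (RPLP0, RPLP1 and RPLP2, which recruit translation factors) are called core genes. A further 6 genes carry a ribosomal name without being standard ribosome parts: the paralogues RPL22L1, RPL26L1, RPL36AL, RPL7L1 and RPS27L, and RPS19BP1, which encodes a protein that binds RPS19 and is known as an activator of the deacetylase SIRT1. They are called atypical.

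The 64 genes comprised 31 large subunit, 24 small subunit, 3 P-stalk and 6 atypical genes, so that 58 were core. They were covered by 96 probe sets, and 24 genes had more than 1. All values below are log2 of the deposited RMA intensity of 1 probe set per gene, or differences of such values, and probe brightness does not rank genes by mRNA amount. A probe set was tested where its log2 intensity exceeded 5 in at least 2 arrays. That held for 63 of the 64 genes. RPS15A, a small subunit protein, was left out with a mean of 4.06. The median standard error over the members was 0.051 for the difference between times and 0.061 for each difference between diets. It depends on the number of arrays and on an estimate of the spread that draws on all probe sets tested.

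Most core genes had bright probe sets whose values varied little between animals. The mean over the 22 arrays was 13 or higher for 54 of the 58 core genes, while the brightest probe set of an array lay between 14.18 and 14.42. The probe sets of RPL26 (mean 7.18), RPL30 (5.20), RPL37 (9.38) and RPS15A were the 4 dim ones, and these varied more: over its 22 arrays RPL30 ranged from 4.73 to 5.78 and RPL37 from 8.84 to 9.81. RPLP0, the scaffold of the stalk, measured 13.85 to 13.90 in the 10 time 0 arrays, with a median of 13.88. It measured 13.88, 13.89, 13.89 and 13.89 in the 4 control arrays at 9 months, 13.89, 13.91, 13.87 and 13.91 on the high-fat diet, and 13.90, 13.89, 13.92 and 13.90 with resveratrol. Its highest and lowest arrays thus lay within a narrow band, and the 4 conditions overlapped. RPS6, the small subunit protein that the S6 kinases phosphorylate, averaged 13.61 ± 0.03 (SD, n = 10) at time 0 and then, on control chow, high-fat chow and high-fat chow with resveratrol, 13.66 ± 0.03, 13.65 ± 0.02 and 13.62 ± 0.05 (SD, n = 4 each). RPS19, whose mutation is the best known cause of Diamond-Blackfan anaemia, averaged 13.95 ± 0.03 (SD, n = 10), 13.96 ± 0.04, 13.98 ± 0.02 and 13.96 ± 0.01 (SD, n = 4 each) in the same order. For both genes the arrays of the 4 conditions overlapped.

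Within a condition and sex, the median standard deviation of the 57 tested core genes was 0.037, against 0.18 over all 17240 probe sets tested. It was below 0.1 for 54 of the 57 core genes and for 5.92% of all probe sets tested. Most core probe sets lay near the top of the intensity scale, and the part of that position in the small spreads and differences was not tested. The mean over the tested core genes was 13.33 ± 0.02 (SD, n = 10) at time 0 and, in the same order as above, 13.31 ± 0.03, 13.32 ± 0.02 and 13.31 ± 0.03 (SD, n = 4 each) at 9 months. All 22 arrays lay between 13.27 and 13.37, and the conditions overlapped.

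**Figure D1:**
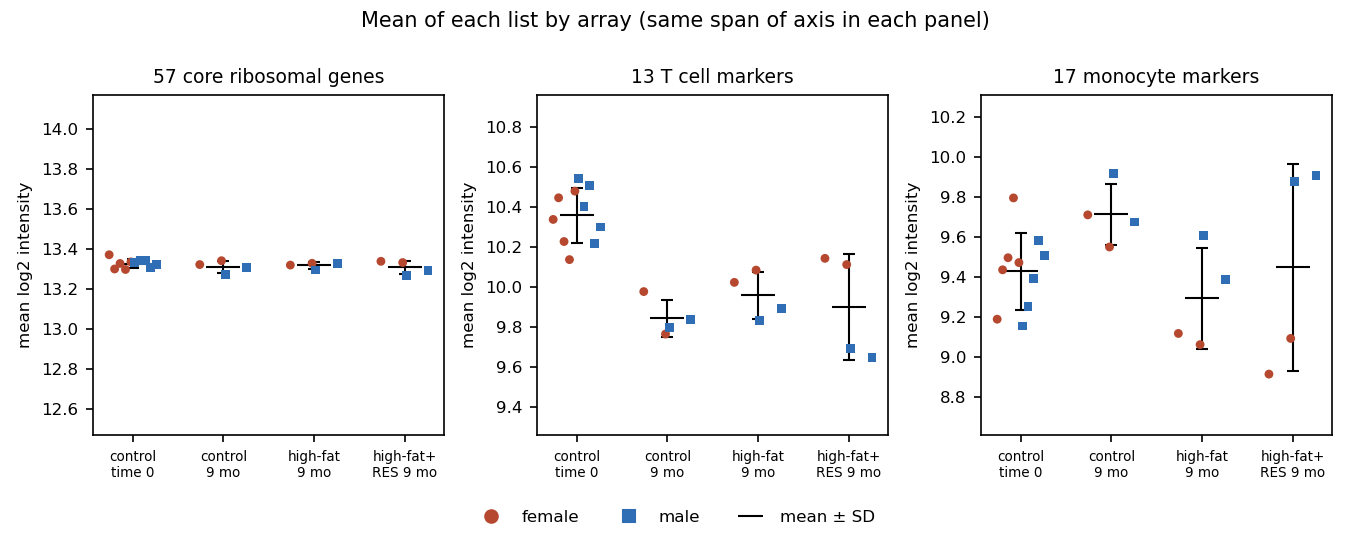
Mean log2 intensity per array (vertical axis) over the 57 tested core ribosomal genes, 13 T cell markers and 17 monocyte and dendritic cell markers, by condition (horizontal axis; RES is resveratrol), with 1 point per array and the mean and SD of each condition. Each panel spans the same number of log2 units; the core ribosomal mean stayed between 13.27 and 13.37 on all 22 arrays, while the T cell mean was 10.14 to 10.54 at time 0 and 9.64 to 10.14 at 9 months.

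Between time 0 and 9 months on control chow, 2 of the 63 tested ribosomal genes changed, and both fell: RPS19BP1 and RPS27L, which are atypical. Of the 57 tested core genes 0 passed (limma, Benjamini-Hochberg adjusted p below 0.05 over all probe sets), and 1 of them had an unadjusted p below 0.05. On the same arrays 35% of the 17240 probe sets tested passed, 15.8% as higher and 19.1% as lower at 9 months. The members' median difference (9 months minus time 0) was -0.017, against -0.0064 over all probe sets tested. The median size of the difference, regardless of sign, was 0.036 for the core genes and 0.21 over all probe sets tested. Of the core genes 26 lay above 0 and 31 below. In 49 of the 57, the 95% interval of the difference stayed within 0.2 log2 units on either side of 0, while 8 intervals reached further.

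RPS19BP1, the SIRT1 activator's gene, ranged from 8.90 to 9.36 over the 10 time 0 arrays, with a median of 9.16. On control chow at 9 months its values were 8.74 in pig 18, 8.36 in pig 8, 8.46 in pig 16 and 8.66 in pig 25. All 4 later arrays lay below all 10 earlier ones. The difference was -0.58 (SE 0.089, limma adjusted p = 5.61e-05), so that the intensity fell by 33.3%. In the animals sampled at both times, RPS19BP1 went from 9.31 to 8.36 in pig 8 and from 8.97 to 8.66 in pig 25. The arrays of the other diets were also low, at 8.61, 8.56, 8.67 and 8.63 on the high-fat diet and at 8.56, 8.45, 8.70 and 8.69 with resveratrol. No 9 month array on any diet reached the lowest time 0 value.

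RPS27L encodes a paralogue of RPS27 and is a known target of the tumour suppressor p53. Over the 10 time 0 arrays it ranged from 10.98 to 11.33, with a median of 11.13. On control chow at 9 months it measured 10.85 in pig 18, 10.82 in pig 8, 10.84 in pig 16 and 10.80 in pig 25. The groups again did not overlap. The difference was -0.32 (SE 0.070, limma adjusted p = 0.00164), and the intensity fell by 19.6%. Pig 8 went from 11.02 to 10.82 and pig 25 from 11.12 to 10.80. On the high-fat diet the values were 10.74, 10.71, 10.99 and 10.88, and with resveratrol 10.81, 10.81, 10.80 and 11.03, so that 1 array of each of these diets reached into the range of time 0. Its parent RPS27, a small subunit protein, differed by -0.05 (SE 0.051, limma adjusted p = 0.517). The remaining atypical genes lay below 0 as well without passing: RPL36AL differed by -0.12 (adjusted p = 0.104), RPL22L1 by -0.09 (0.311), RPL26L1 by -0.05 (0.667) and RPL7L1 by -0.03 (0.835). For RPL26L1 the sign turned when pig 16 at 9 months was left out (0.04), and for RPL7L1 when pig 18 at 9 months (0.02) or pig 10 at time 0 (0.0041) was left out.

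**Figure D2:**
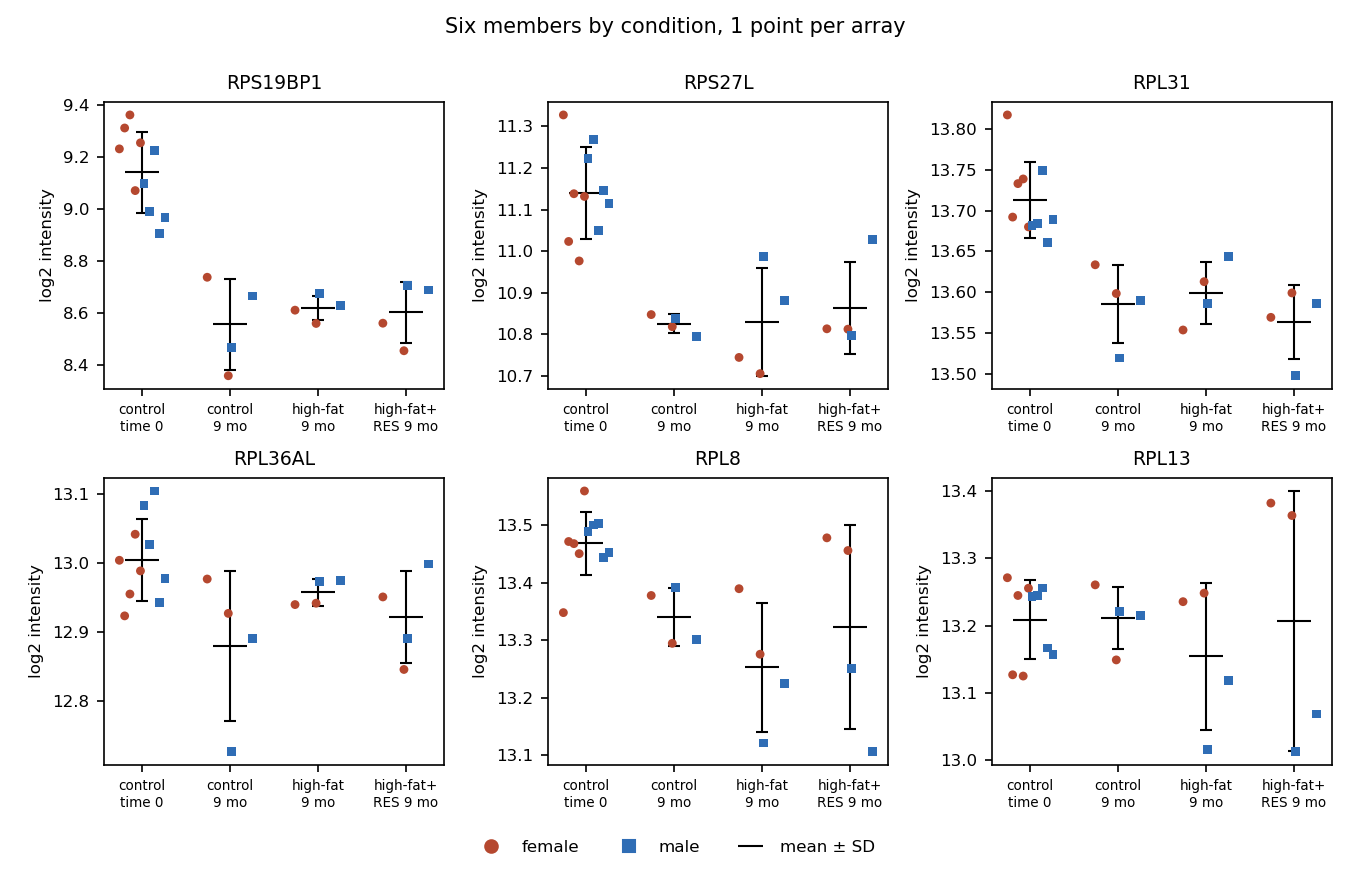
Log2 intensity (vertical axes, each with its own range) of RPS19BP1, RPS27L, RPL31, RPL36AL, RPL8 and RPL13 by condition (horizontal axis), 1 point per array, circles for females and squares for males, with the mean and SD of each condition. RPS19BP1 and RPS27L on control chow at 9 months lay below all time 0 arrays, and RPL13 with resveratrol split by sex, at 13.38 and 13.36 in females and 13.01 and 13.07 in males.

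Among the core genes, RPL31, a large subunit protein near the exit of the peptide tunnel, came closest to the threshold. At time 0 it ranged from 13.66 to 13.82 with a median of 13.69, and on control chow at 9 months it measured 13.63, 13.60, 13.52 and 13.59. The groups did not overlap, and the difference was -0.13 (SE 0.051, limma adjusted p = 0.0572). RPL31 also measured 13.55, 13.61, 13.59 and 13.64 on the high-fat diet and 13.57, 13.60, 13.50 and 13.59 with resveratrol, again below every time 0 array. RPLP2 of the stalk differed by -0.11 (adjusted p = 0.116) with overlapping groups. RPL11 had the highest difference, 0.06 (adjusted p = 0.32), followed by RPL9 at 0.06 (0.382), RPL15 at 0.06 (0.454) and RPL5 at 0.05 (0.448). RPL5 and RPL11 bind the 5S ribosomal RNA and, when ribosome assembly fails, the p53 inhibitor MDM2. In all, 4 members had an unadjusted p below 0.05, namely RPS19BP1, RPS27L, RPL31 and RPL36AL. The groups did not overlap in 5 members (7.94%; RPS19BP1, RPS27L, RPL31, RPL23 and RPS26, all lower at 9 months), against 15.2% of all probe sets tested.

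**Figure D3:**
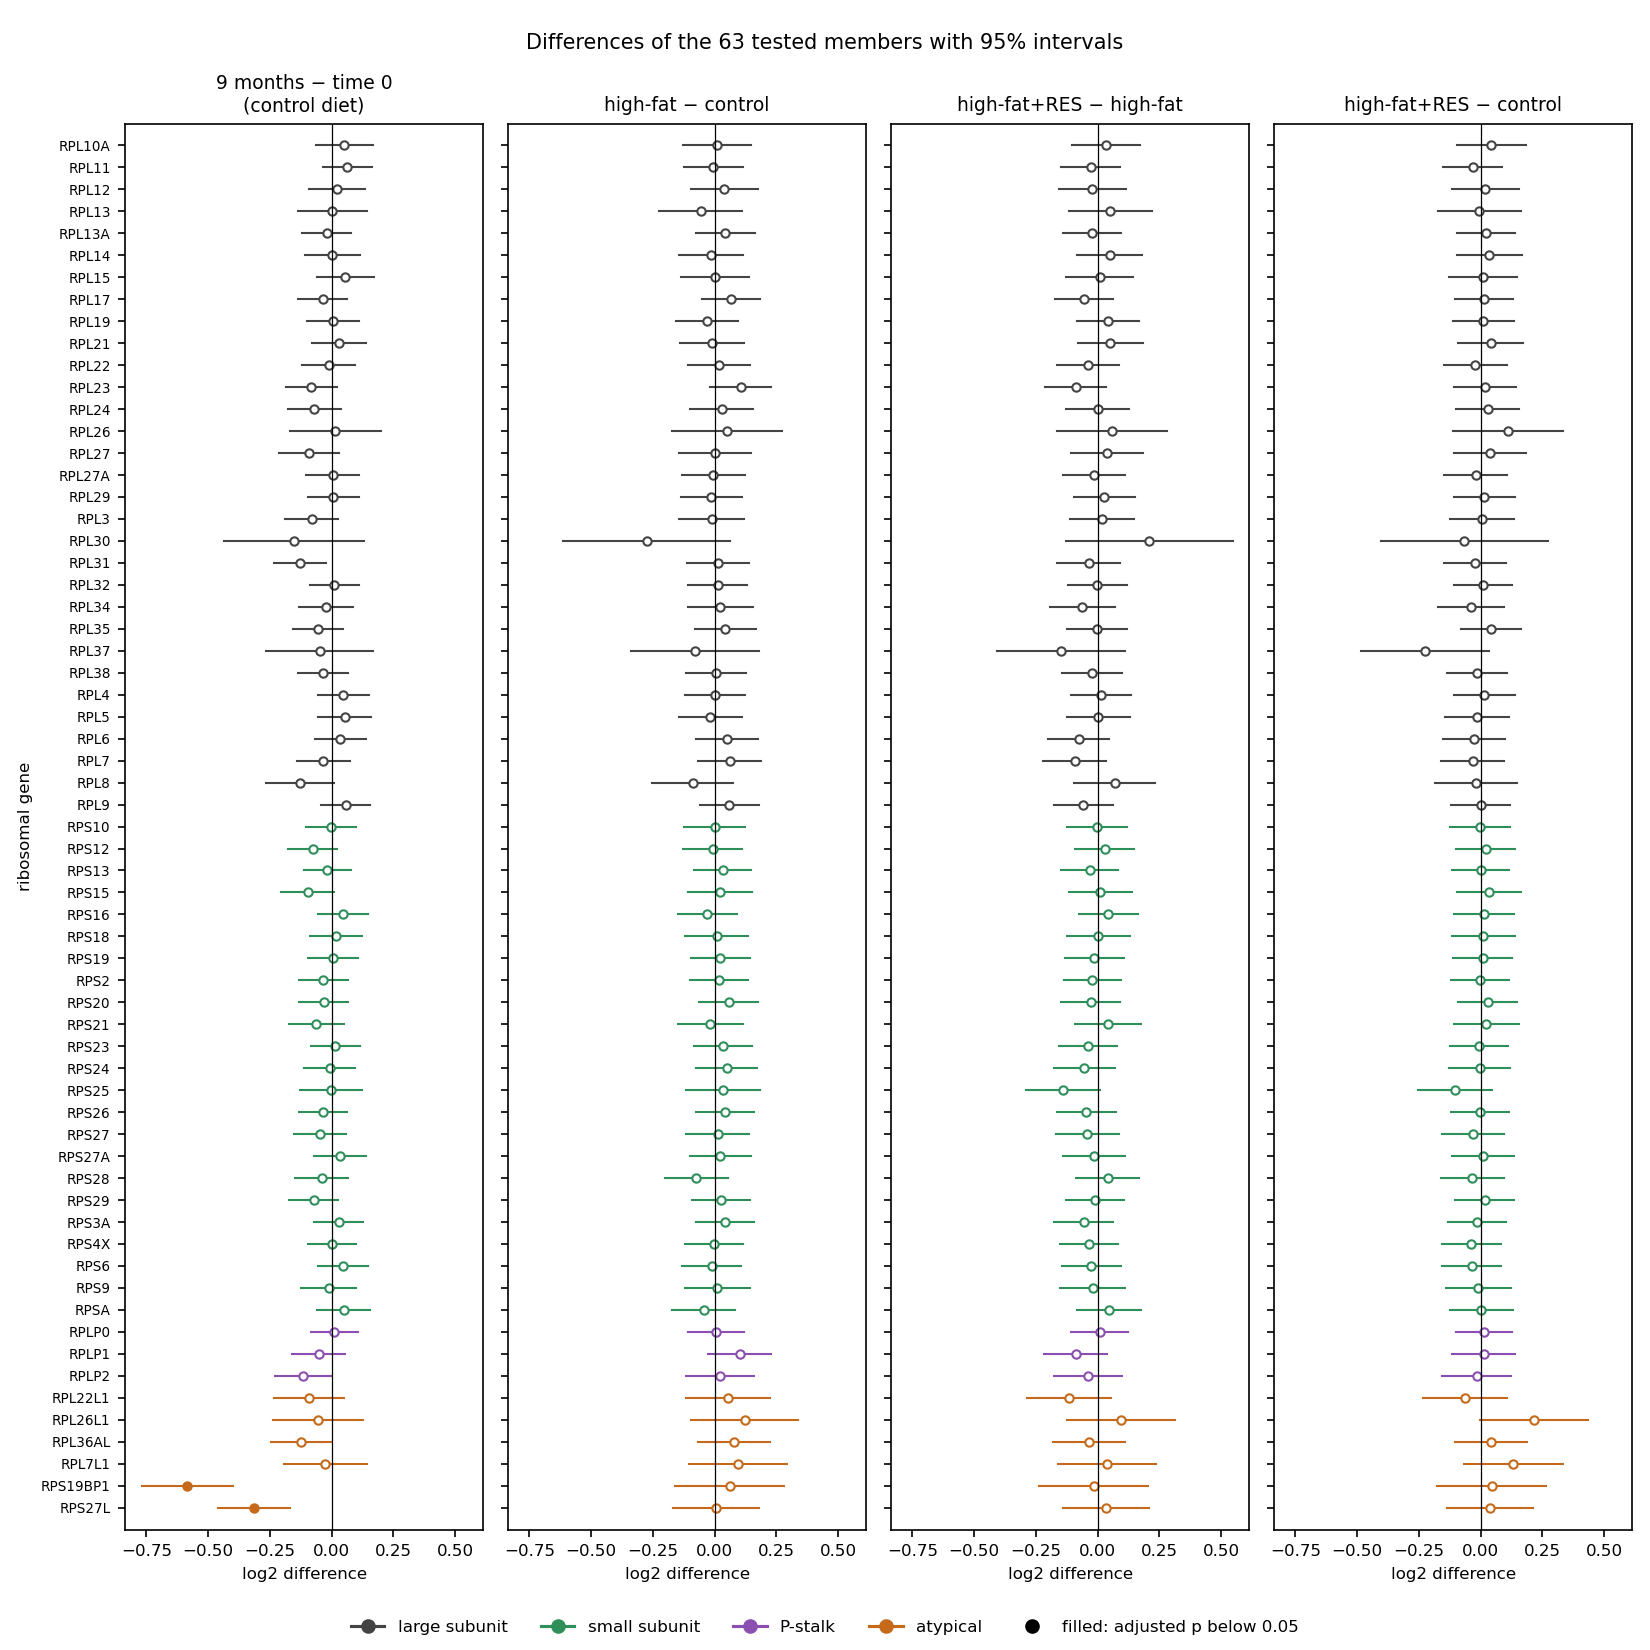
Log2 differences of the 63 tested members (rows, coloured by class) with 95% intervals (horizontal axes) for 9 months minus time 0 on control chow, high-fat minus control, high-fat plus resveratrol (RES) minus high-fat, and high-fat plus resveratrol minus control. Filled points passed the adjusted threshold: RPS19BP1 at -0.58 and RPS27L at -0.32 in the first panel, and 0 members in the others.

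The count of 2 rests on how the spread of bright probe sets is estimated. When limma's prior spread followed intensity, 10 members passed for time, of which 7 were core: RPL11 was higher, and RPL23, RPL31, RPLP2, RPS12, RPS15 and RPS29 were lower. These 7 differences were the same small ones, between -0.13 and 0.06. RPL31 also passed with arrays centred on their median (adjusted p = 0.0466), with 16 added before the log (0.033) and with a stricter filter on low values (0.0473). RPS19BP1 and RPS27L passed under all 30 alternatives run, with adjusted p from 2.5e-05 to 0.000638 and from 0.000312 to 0.0162. The alternatives with the next brightest probe set and with the mean of all probe sets could not move these genes. Both then kept the same probe set and the same difference.

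The genes with more than 1 probe set were also read at lower intensity. Of 32 further probe sets of members 28 were tested, with means from 5.89 to 13.64, and 8 of them (28.6%) passed for time, 3 as higher (10.7%) and 5 as lower (17.9%). These shares lie near those over all probe sets (35%, 15.8% and 19.1%). RPS27A, which encodes a fusion of ubiquitin with a small subunit protein, differed by -1.07 (SE 0.21, adjusted p = 0.000488) on a probe set of mean 7.54, and by 0.03 (adjusted p = 0.633) on its brightest. RPS12 differed by 0.53 (SE 0.086, adjusted p = 9.47e-05) on a probe set of mean 7.36, and by -0.08 (0.229) on its brightest. RPLP0 differed by 0.46 (SE 0.083, adjusted p = 0.000302) on a probe set of mean 7.09, and by 0.01 (0.878) on its brightest. The others that passed were RPL23 (0.30) as higher and RPL35 (-0.37), RPL12 (-0.58), RPL17 (-0.75) and RPL6 (-0.89) as lower. The sign was that of the brightest probe set in 16 of the 28. Of the 28, 8 carry the same cluster name as the gene's brightest probe set with the other of the letters S and A, and all 8 lay below 0 with a median of -0.58 and 3 calls. What the letters stand for is not given in the sources used here, and whether the dim probe sets read the same transcripts was not tested.

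**Figure D4:**
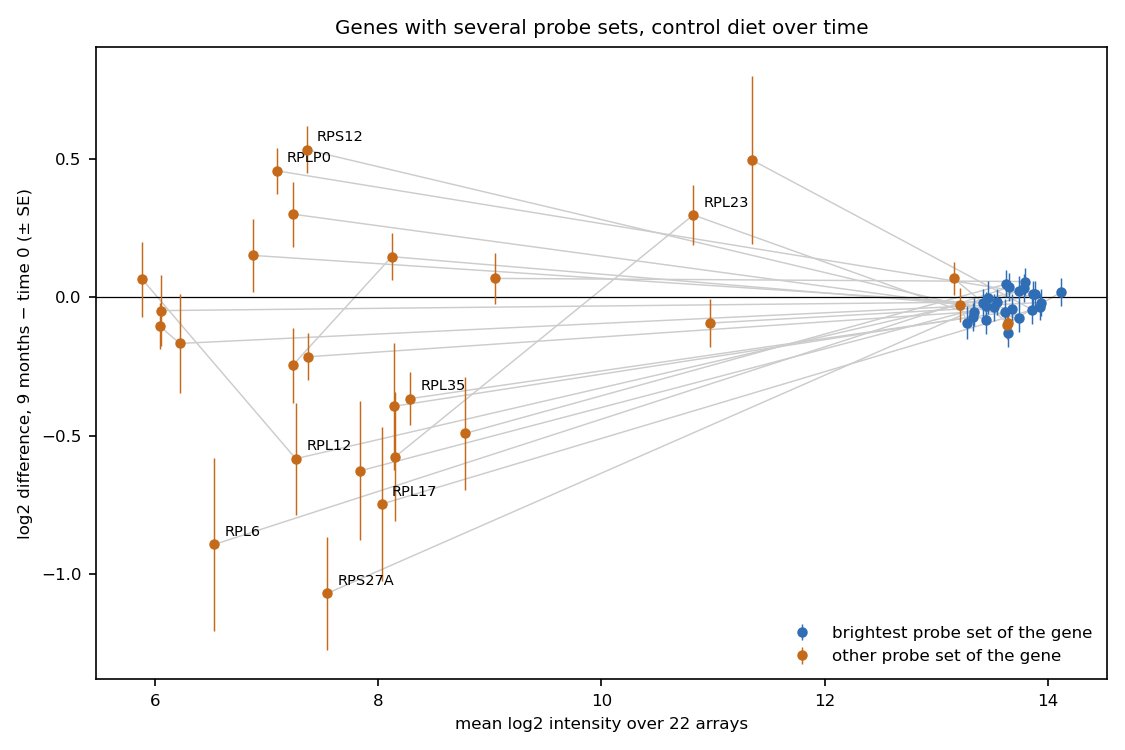
Log2 difference between 9 months and time 0 on control chow (vertical axis, with SE) against mean log2 intensity over 22 arrays (horizontal axis) for genes with several tested probe sets, the brightest in blue and others in orange, joined by lines within a gene. The brightest sets gather near 0, while other sets reached from -1.07 (RPS27A) to 0.53 (RPS12), and the 8 that passed are named.

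Beside the core genes, 87 probe sets had a mean of 13 or more, and 18.4% of them passed for time, a limit chosen after the values were seen. The core genes had 0 calls among the 54 above the same limit. At limits of 12 and 13.5 the shares were 32% and 13.3%, beside 0 of 54 and 0 of 41 core genes. At limits of 12, 13 and 13.5 the median size of the difference was 0.12, 0.075 and 0.054 in the other probe sets. For the core genes it was 0.035, 0.035 and 0.034. The difference between the shares was not tested. Of the 87 probe sets 41 carry a single symbol, and what the others encode was not tested.

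Genes around the ribosome were compared from fixed lists. The counts stand beside 35% of all probe sets tested that passed for time, 15.8% as higher and 19.1% as lower. Of 19 tested mRNAs that share the terminal oligopyrimidine start without encoding a ribosomal protein, 2 rose with time and 0 fell: VIM, which encodes vimentin, by 0.32 (limma adjusted p = 0.00333), and PABPC1, the poly(A) binding protein, by 0.16 (0.0163). Of 53 ribosome biogenesis factors 12 rose and 11 fell, among them POLR1A, the largest subunit of RNA polymerase I, at -0.83 (adjusted p = 0.000342), and FBL, the rRNA methyltransferase fibrillarin, at -0.46 (0.000323). Of 18 regulators 5 rose and 4 fell, with RHEB, the activator of mTOR, at 0.77 (4.28e-05), CDKN1A, the p53 target p21, at 0.79 (0.000519) and EIF4E, the cap binding factor, at -0.44 (0.00184). YY1 at -0.33 (limma adjusted p = 0.000966) and RRAGC at -0.34 (0.000976) fell as well. Of the separate family of mitochondrial ribosomal proteins 33 of 58 were lower and 5 higher, with a median of -0.28. MRPS36 differed by -1.02 (adjusted p = 9.85e-06) and MRPL19 by -0.83 (1.15e-05). Of the ribosomal genes that take part in p53 surveillance 1 of 5 fell (RPS27L). Of 15 Diamond-Blackfan anaemia genes and 11 genes of the small subunit head 0 passed.

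**Figure D5:**
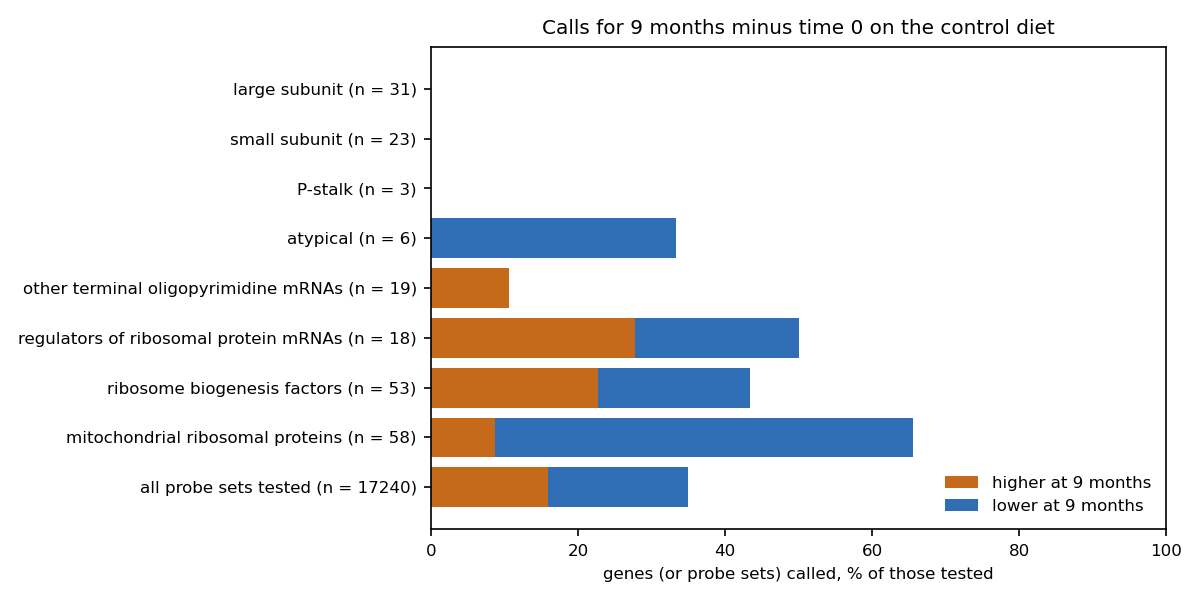
Share of tested genes (for the last bar, probe sets) that passed as higher or lower at 9 months than at time 0 on control chow (horizontal axis, %), by list (vertical axis, with the number tested). Large subunit, small subunit and P-stalk genes had 0 calls, 2 of 6 atypical genes were lower, 33 of 58 mitochondrial ribosomal proteins were lower, and 35% of all probe sets tested passed.

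Cell composition markers moved over the same interval, in which 15.8% of all probe sets tested passed as higher and 19.1% as lower. Of 13 T cell markers 8 were lower and 0 higher, with a median of -0.53, and the mean of the list was 10.14 to 10.54 at time 0 and 9.76 to 9.98 on control chow at 9 months. Of 17 monocyte and dendritic cell markers 4 were higher and 0 lower, with a median of 0.21 and list means of 9.16 to 9.80 and 9.55 to 9.92. Lower at 9 months were also 2 of 3 B cell, 3 of 6 NK and cytotoxic (1 was higher), 5 of 7 erythroid and 1 of 5 granulocyte markers, while 1 of 7 platelet markers was higher. In these mixed cells, fewer cells of a type and less RNA per cell cannot be told apart, and the part of cell composition in the falls of RPS19BP1 and RPS27L was not tested. The 3'-5' signal differences on the control probe sets, a sign of RNA and label integrity, moved as well: for actin the mean went from 0.04 ± 0.24 (SD, n = 10) at time 0 to 0.28 ± 0.30 (SD, n = 4) on control chow at 9 months, and for GAPDH from 0.26 ± 0.08 (SD, n = 10) to 0.14 ± 0.04 (SD, n = 4). The part of these in the falls was not tested. No label names a labelling batch. The arrays of each time were split where the gap in their mean poly-A spike-in value was largest, which gave sets A (2 arrays, 9.03 to 9.06) and B (8 arrays, 7.49 to 7.78) at time 0 and C (7 arrays, 8.28 to 8.92) and D (5 arrays, 9.86 to 10.53) at 9 months. The sets lie within the times, so that a labelling difference between the times cannot be told apart from time. Leaving out set A gave -0.55 for RPS19BP1 and -0.28 for RPS27L.

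No ribosomal gene passed the test for the high-fat diet. Against control chow at 9 months, 0 of the 63 members passed and 0 had an unadjusted p below 0.05. Over all 17240 probe sets 0% passed (limma), and 9.06% had an unadjusted p below 0.05. The members' median difference (high-fat minus control) was 0.014, against -0.0045 over all probe sets tested, with 44 above 0 and 19 below. RPL23, which also binds MDM2, measured 13.49, 13.48, 13.47 and 13.55 on the high-fat diet against 13.41, 13.44, 13.29 and 13.42 on control chow. The groups did not overlap, and the difference was 0.11 (SE 0.060, limma adjusted p = 0.638). RPLP1 of the stalk differed by 0.10 (SE 0.061, adjusted p = 0.672), also without overlap, at 13.38, 13.39, 13.36 and 13.46 against 13.31, 13.27, 13.28 and 13.33. In all 6 members had groups that did not overlap (9.52%), against 5.05% of all probe sets tested, and all 6 were higher on the high-fat diet: RPL17 (0.07), RPL6 (0.05), RPS20 (0.06) and RPS26 (0.04) beside RPL23 and RPLP1. On their next brightest probe sets, each without a call, RPL23 stood at -0.040 and RPLP1 at -0.0042, while RPL17 stood at 0.51 and RPL6 at 0.51. Those of RPL17 (mean 8.03) and RPL6 (mean 6.53) share the cluster name of the brightest probe set with the other of the letters S and A. Whether they read the same transcripts was not tested. The diets were unbalanced over the spike-in sets, with 3 of 4 high-fat arrays in set D and 3 of 4 control arrays in set C. The difference of RPL23 was 0.11 within set C and 0.13 within set D, that of RPLP1 0.05 and 0.13, and that of RPL17 0.06 and 0.07. Actin 3'-5' averaged 0.60 ± 0.24 (SD, n = 4) on the high-fat diet against 0.28 ± 0.30 (SD, n = 4) on control chow, and its part in these values was not tested.

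Below 0 on the high-fat diet, the members with the smallest p were RPL30 (-0.27, SE 0.16, limma adjusted p = 0.667) on its dim probe set, RPL8 (-0.09), RPS28 (-0.07), RPL13 (-0.06) and RPSA (-0.04). RPL26L1 (0.12, adjusted p = 0.79) and RPL36AL (0.08, 0.8) lay above 0. RPS19BP1 stood at 0.06 (SE 0.11, adjusted p = 0.916) and RPS27L at 0.0043 (SE 0.083, 0.995). For 49 of the 57 core genes the 95% interval stayed within 0.2 log2 units of 0. Of 17 monocyte and dendritic cell markers 16 lay below 0 on the high-fat diet, with a median of -0.38 and 0 calls.

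The same held for resveratrol added to the high-fat diet. Of the 63 members 0 passed and 0 had an unadjusted p below 0.05, beside 0% passing (limma) and 6.63% with an unadjusted p below 0.05 over all probe sets. The members' median difference (with resveratrol minus without) was -0.015, against 0.016 over all probe sets tested, with 25 above 0 and 38 below. RPS25, a small subunit protein used in internal initiation, measured 13.34, 13.32, 13.35 and 13.47 with resveratrol and 13.53, 13.50, 13.44 and 13.57 without. The groups overlapped through 1 array of each, and the difference was -0.14 (SE 0.072, limma adjusted p = 0.781). RPL7 differed by -0.09, RPL23 by -0.09 and RPLP1 by -0.09, while RPL30 stood at 0.21, RPL8 at 0.07, RPL21 at 0.05 and RPL14 at 0.05, with adjusted p from 0.84 to 0.934 over these 7. The atypical RPL22L1 stood at -0.12 (adjusted p = 0.849) and RPL26L1 at 0.09 (0.922). RPL6, RPS23 and RPS3A had groups that did not overlap, all lower with resveratrol (4.76% of the members, against 3.81% of all probe sets tested). RPS19BP1 differed by -0.02 (SE 0.11, adjusted p = 0.988) and RPS27L by 0.03 (SE 0.083, 0.971). GAPDH 3'-5' averaged 0.03 ± 0.04 (SD, n = 4) with resveratrol and 0.20 ± 0.04 (SD, n = 4) without, and actin 0.20 ± 0.14 and 0.60 ± 0.24 (SD, n = 4 each). Their part in these differences was not tested. Of the core genes 47 of 57 had a 95% interval within 0.2 log2 units of 0.

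Both comparisons share the 4 high-fat arrays. Over the diets, RPL23 averaged 13.39 on control chow, 13.50 on high-fat chow and 13.41 with resveratrol, and RPLP1 averaged 13.30, 13.40 and 13.31. The spike-in sets were unbalanced here too, since set C held 1 high-fat array and set D held 1 resveratrol array. For resveratrol minus high-fat, RPL23 stood at -0.062 within set C and -0.11 within set D, and RPLP1 at -0.0096 and -0.16. On their next brightest probe sets, each without a call, RPL23 stood at 0.17 and RPLP1 at 0.18 for resveratrol minus high-fat. Set against control chow directly, the high-fat diet with resveratrol gave 0 of 63 members past the threshold and 0 with an unadjusted p below 0.05 (limma), beside 0% and 3.85% of all probe sets tested. The median was 0.0090, against 0.0056 over all probe sets tested, and 0 members (against 1.53% of all) had groups that did not overlap. RPL26L1 had the highest difference (0.22, SE 0.10, adjusted p = 1). Its values were 10.83, 10.70, 10.71 and 10.83 with resveratrol and 10.71, 10.71, 10.27 and 10.51 on control chow. RPL37 had the lowest (-0.23, SE 0.12, adjusted p = 1), at 9.34, 9.25, 8.84 and 9.30 against 9.40, 9.81, 9.02 and 9.41. RPL7L1 (0.13), RPL26 (0.11), RPL10A (0.04), RPL35 (0.04), RPS25 (-0.10), RPL22L1 (-0.06), RPS4X (-0.04) and RPS6 (-0.04) had the next smallest p, each with an adjusted p of 1. Single control arrays weighed on these values: without pig 8 RPL37 stood at -0.11, and without pig 16 RPL26L1 stood at 0.13 and RPL26 at 0.023. Here 53 of 57 core intervals stayed within 0.2 log2 units of 0.

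The sexes were compared at each time. At time 0, 0 of 63 members passed (limma), against 1.07% of all probe sets tested (0.493% higher and 0.574% lower in females). Of the members 1, RPS19BP1, had an unadjusted p below 0.05, against 16.4% of all, at 0.21 (female minus male, SE 0.084, adjusted p = 0.223). RPLP2 was -0.10 (adjusted p = 0.392), with all 5 females below all 5 males (the 1 member without overlap, against 3.25% of all probe sets tested), and RPL26 -0.14 (0.421), RPS27 -0.05 (0.713), RPL27 0.06 (0.679) and RPS20 0.04 (0.76) followed. Both arrays of spike-in set A were female, and all 5 males were in set B, so that sex and set were partly confounded. Without set A, 28 probe sets passed for sex at time 0, against 184 with it. Leaving out 1 array of time 0 moved this count as well, from 38 without male pig 11 to 395 without female pig 20, both of set B. Without set A RPL27 stood at -0.0017, while RPLP2 kept its sign under all 24 alternatives. At 9 months, over the 3 diets, again 0 members passed, against 6.01% of all probe sets tested (3.07% higher and 2.94% lower in females). An unadjusted p below 0.05 was found for 21.8% of all probe sets and for 4 members: RPL13, RPL8, RPL37 and RPL26. The members' median (female minus male) was 0.025 against 0.019 over all probe sets tested, and 50 of the 63 lay above 0. In 3 members, RPL21, RPL5 and RPS9, all 6 females at 9 months lay above all 6 males (4.76%, against 1.27% of all probe sets tested).

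RPL13, a large subunit protein, showed the sex difference nearest to the threshold, 0.16 (SE 0.053, limma adjusted p = 0.0709). In resveratrol pigs the females measured 13.38 and 13.36 and the males 13.01 and 13.07. On the high-fat diet the females measured 13.24 and 13.25 and the males 13.02 and 13.12, and on control chow 13.26 and 13.15 against 13.22 and 13.21. Females were thus higher on both high-fat diets and overlapped with males on control chow. The sex difference of RPL13 did not pass as different between resveratrol and control (0.35, adjusted p = 0.192), the lowest of any member in the 4 tests of a sex by condition difference. RPL8, which lies near the catalytic centre of the large subunit, differed by 0.15 (SE 0.055, adjusted p = 0.123), with 13.48 and 13.46 in females and 13.25 and 13.11 in males on resveratrol. On the high-fat diet RPL8 measured 13.39 and 13.28 in females and 13.12 and 13.22 in males. On control chow the sexes overlapped, at 13.38 and 13.29 against 13.39 and 13.30. RPL37 differed by 0.23 (SE 0.10, adjusted p = 0.183). RPS27L (-0.10), RPS19BP1 (-0.09) and RPLP1 (-0.05) were the lowest by p, with adjusted p from 0.437 to 0.634. With the prior spread following intensity, RPL13 (adjusted p = 0.00939), RPL8 (0.0259), RPL14 (0.0301) and RPL5 (0.0376) passed as higher in females, and RPL13 passed with 16 added before the log (0.0473). Over the 12 alternatives other than leaving out 1 array, 765 to 1193 of all probe sets passed for sex at 9 months, against 1036 as reported. Of 53 biogenesis factors 6 were higher in females at 9 months and 0 lower, DKC1, the pseudouridine synthase, by 0.45 (limma adjusted p = 0.00384). Among all probe sets tested 3.07% were higher and 2.94% lower in females. Over the same arrays 8 of 17 monocyte and dendritic cell markers were lower in females (median -0.52), and with resveratrol the mean of that list was 8.92 and 9.09 in the females and 9.88 and 9.91 in the males. The part of this in the values of RPL13 and RPL8 was not tested.

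Across the 22 arrays, after the means of condition and sex were removed, the core genes moved together only in part. The median Pearson correlation between pairs of core genes was 0.20, with quartiles of -0.04 and 0.42, as a description over arrays that share their normalization. RPL17 (0.85), RPL10A (0.84) and RPS10 (0.79) had the highest correlations with the mean of the other core genes, while RPLP0 (-0.33) and RPL8 (-0.34) had the lowest. These are the ends of 57 values, and whether any of them differs from 0 was not tested. The genes outside the family most like the core mean were LYST (0.87), ACP1 (0.85), TAF9 (0.84), PTS (0.84) and ASB6 (0.83), over 22 arrays. They are the 5 highest of all such genes tested, picked on these same values. Female pig 6 at time 0 had the highest core mean, 13.37, while the other time 0 arrays lay between 13.30 and 13.34. The part of that array in these correlations was not tested.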

How the data were processed

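Per the labels, RNA of blood mononuclear cells was labelled with biotin and hybridised to 1 array per sample. The submitters' processing notes name GCOS, RMA and Affymetrix Expression Console 1.1. The authors deposited linear RMA intensities, which were floored at 1 and taken to log2 here. Of 24123 probe sets 124 controls were left out, and the 17240 above log2 5 in at least 2 arrays were tested. All 64 members' Entrez IDs carried the same symbol in the gene table.

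Groups came from the labels, and each array is a separate animal within its group. Time and diet differences were tested with limma 3.58.1 in R 4.3.3 on all 22 arrays, with 4 conditions and an additive sex term. Sex was tested in a fit of condition and sex means. All p-values were two-sided and adjusted by Benjamini-Hochberg over all probe sets tested (threshold 0.05). The fits were checked on simulated data.

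The members and lists were chosen with earlier results of these data known. Members are named as the 5 with the smallest p in each direction (for sex 3), plus those past the threshold and the atypical genes. From each list up to 5 genes past the threshold, or else the 2 with the smallest p, could be named. Pigs 8 and 25 pair the times by their labels; the residuals of their 2 arrays correlated at -0.06 and 0.20 over probe sets. Alternatives varied the normalization, filter, offset, probe set per gene, model, spike-in set, pig block and arrays left out.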

Additional observations from a re-analysis of the deposited data

Results flagged for a closer look

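The 21 values checked were single ribosomal genes and the mean of the core genes. Among their 84 groups of 4 to 10 arrays, 5 single arrays lay far from the rest of their group, and chance flags about 1 group in 20. RPS27L measured 11.03 in male pig 5 on resveratrol, while the other arrays of that diet lay between 10.80 and 10.81. RPLP0 measured 13.88 in female pig 18 on control chow at 9 months, below the other arrays at 13.89. RPS6 measured 13.69 in female pig 6 at time 0, above the next array at 13.63. RPS6 measured 13.70 in female pig 8 on control chow at 9 months, above the next at 13.65. RPL30 measured 5.42 in female pig 21 on resveratrol, above the next at 5.07.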

How the results depend on the processing

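There were 300 alternatives for the counts of called members and their medians in the 6 comparisons. In 292 the call count stayed within 1.5 times, or the median within 0.023, of the reported value. That limit was the pooled SD of the core mean, and direction was not part of the rule. Some medians changed sign. They reached 0.0053 for time, 0.0055 for resveratrol, -0.0027 for resveratrol against control and -0.017 for sex at time 0. For time, 2 members passed as reported, and 2 in every fit that left out 1 array. The count was 10 with an intensity trend in eBayes, 13 with that trend and condition by sex means, 4 with array weights, 8 with the mean of all probe sets of a gene and 10 with the next brightest probe set, the last chosen after seeing the data, as were condition by sex means with a trend, the random block below and the fits without a spike-in set. For sex at 9 months the count went from 0 to 4 with the trend and 1 with 16 added before the log. In the other 4 comparisons 0 members passed under every alternative. The median of resveratrol against control was 0.036 within spike-in set D (0.0090 as reported). That set holds 1 resveratrol array, of a female, and 1 control array at 9 months, of a male. Leaving out 1 array, the median ran from -0.027 to -0.0066 for time, 0.0054 to 0.022 for high-fat, -0.015 to -0.0058 for resveratrol, -0.00021 to 0.0097 for resveratrol against control, -0.011 to 0.0088 for sex at time 0 and 0.019 to 0.036 for sex at 9 months. Over the whole array the count of probe sets passing for time ran from 4867 to 7008, for sex at time 0 from 22 to 395 (184 as reported), for sex at 9 months from 319 to 1441 (1036), for high-fat from 0 to 68 and for resveratrol from 0 to 29.

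With pig as a replicate block, the paired fit kept 2 members for time, with RPS19BP1 at -0.58 (limma adjusted p = 6.3e-05) and RPS27L at -0.32 (0.00177), and it changed no other call among the members. With spike-in set as a random block they stood at -0.59 (0.000197) and -0.33 (0.00294). Leaving out 1 array gave -0.64 to -0.51 for RPS19BP1 and -0.34 to -0.29 for RPS27L.

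Of 1396 alternatives for 55 differences of named genes, 16 gained and 0 lost a call, and 27 changed sign, all without a call. Within spike-in set C these were RPL14 (-0.0022), RPL26L1 (-0.15) and RPL30 (-0.063) for resveratrol and RPL30 for high-fat (0.016). Within set D they were RPL22L1 for resveratrol (0.041) and, against control, RPL22L1 (0.29), RPS25 (0.067), RPS4X (0.048) and RPS6 (0.052). These within-set values rest on single arrays: set C has 1 high-fat array, and set D has 1 control and 1 resveratrol array. With the next brightest probe set RPL23 stood at -0.040 for high-fat and 0.17 for resveratrol, RPLP1 at -0.0042 and 0.18, and RPS6 at -0.49 for time. With the mean of all probe sets RPLP1 stood at 0.044 for resveratrol and RPS6 at -0.22 for time. Array weights gave RPL22L1 0.0048 against control and, for time, RPL26L1 0.0013 and RPL7L1 0.013. RPL7L1 also stood at 0.020 with quantile normalization again and 0.013 without set A. RPL27 for sex at time 0 stood at -0.0017 with set as a term, within set B and without set A. Leaving out 1 array, RPL26L1 ran from -0.10 to 0.038 and RPL7L1 from -0.069 to 0.018 for time. The cause was not tested. A set term for time could not be fitted, since each set holds 1 time, and sex at 9 months was not run within sets.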
